A study of Mus musculus with 12 samples.

Results

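The 3 arrays labelled activated B cells and the 3 arrays labelled resting T cells were compared, 6 of the 12 arrays of the series. Their members are the arrays whose labels give one of these cell types, and the pair was picked with earlier results of the series known. According to the labels, the activated B cells were CD43-negative splenic B cells kept for 4 days with αCD40 and IL-4 (replicates 1 to 3). The resting T cells were B220-negative splenic cells taken on day 0 without culture (replicates 4 to 6). All cells came from F1 mice of a C57Bl/6 by FVB cross, and were enriched with magnetic beads before total RNA was labelled for Affymetrix whole-transcript arrays. The other 6 arrays, used here to estimate the spread of each gene and for 1 comparison at the end, were labelled resting B cells (day 0) and activated T cells (αCD3, αCD28 and IL-2, day 4).

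The measured genes went against these labels. Genes of the T cell receptor complex were high on the arrays labelled activated B and low on those labelled resting T, and genes of the B cell receptor complex were the other way round. Genes of mitosis were high on both. The comparison is therefore between 2 groups of arrays high in mitosis genes that differ in lymphocyte genes, and the groups are called "activated B" and "resting T" below only as their labels. A difference is always activated B minus resting T, on the log2 scale, so that a positive value is a higher level on the arrays labelled activated B. Whether replicates are separate mice is not stated, and p-values therefore cover only the spread among these arrays, part of which may be technical.

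T and B lymphocytes recognise antigen with related receptors that are coupled to different signalling chains. A T cell carries the T cell receptor with the CD3 chains and a CD4 or CD8 co-receptor, and a B cell carries membrane immunoglobulin with CD79a and CD79b and shows peptides to T cells on MHC class II. When either cell is stimulated through its receptor together with a costimulatory signal, it enters the cell cycle, changes its metabolism and switches on effector genes, which are cytokines and cytotoxic granules in T cells and secreted immunoglobulin in B cells.

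Of 19937 genes tested with limma, 4579 were called at an adjusted p under 0.05 (23%), of which 2599 were higher in activated B (13% of all genes) and 1980 lower (9.93%). A call with a difference of at least 2-fold was made for 568 genes in the higher direction (2.85%) and 544 in the lower (2.73%), together 1112 (5.58%). The median difference over all genes was -0.01. The values of the 3 activated B arrays did not overlap with those of the 3 resting T arrays for 7019 genes (35.2%). The arrays correlated within a group at 0.992 or above and between the groups at 0.948 to 0.954, across genes. The level of background was taken from 1027 olfactory receptor genes, whose 95th percentile was 5.21 log2. For genes at or under that level in a group, the difference understates the true ratio. Xist was high on 1 of 3 activated B and on 2 of 3 resting T arrays, with Y-linked Eif2s3y, Kdm5d and Uty low on the same arrays, so that the arrays of a group differed in the sex-linked genes.

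**Figure D1:**
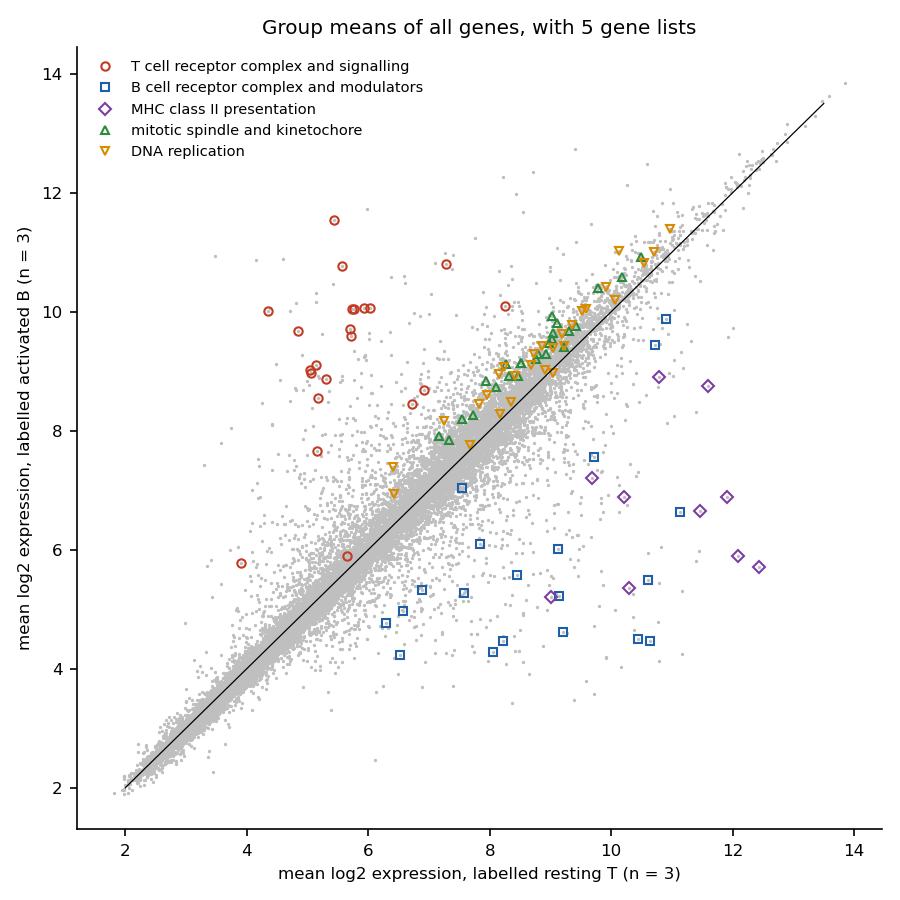
Mean log2 expression of every gene on the 3 arrays labelled activated B (vertical) against the 3 arrays labelled resting T (horizontal), with the line of equal levels and the members of 5 gene lists as coloured symbols. T cell receptor genes lie above the line, B cell receptor and MHC class II genes below it, and mitosis and replication genes lie close to the line, mostly just above it, and above background in both groups.

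The chains and signalling proteins of the T cell receptor were far higher in activated B. Of 22 measured genes, 21 were higher and 0 lower, against 13% of all genes higher, and the median difference was 3.94. Cd3e, a signalling chain of the receptor complex, measured 9.92, 10.19 and 10.10 log2 on the activated B arrays and 5.60, 6.32 and 5.88 on the resting T arrays, a difference of 4.14 (SE 0.17, adjusted p = 1.51e-11), or 17.6-fold. Every activated B array was above every resting T array by more than 3 log2 units. Cd3g, another chain of the complex, was at 11.47, 11.61 and 11.53 against 4.74, 5.49 and 6.08, a difference of 6.10 (SE 0.37, adjusted p = 1.19e-09). Its resting T values spanned the background level, and replicate 6 was the highest of them.

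Both co-receptors were high on the same arrays. Cd4 was at 8.99, 9.11 and 8.97 in activated B and at 5.15, 4.92 and 5.06, near background, in resting T (difference 3.98, SE 0.15, adjusted p = 4.14e-12). Cd8a was at 10.001, 10.12 and 10.02 against 5.16, 5.36 and 6.76 (difference 4.29, SE 0.30, adjusted p = 8.94e-09). Thus the activated B arrays held transcripts of both co-receptors at a similar spread between arrays, whereas the resting T arrays differed from each other in Cd8a. In bulk RNA, fewer cells of a type and less RNA per cell cannot be told apart. Downstream of the receptor, the kinase gene Zap70 was at 8.88 ± 0.06 (SD, n = 3) against 5.31 ± 0.13 and the adaptor gene Lat at 10.06 ± 0.04 against 6.02 ± 0.04. Themis, which is needed for thymocyte selection, had a difference of 5.66.

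A few members of the list departed from the rest. Thy1, a surface glycoprotein of mouse T cells, was at 9.94, 10.25 and 10.11 in activated B and at 8.41, 8.34 and 7.99 in resting T, so that the resting T arrays were also well above background (difference 1.86, SE 0.17, adjusted p = 2.97e-07). Txk, a Tec family kinase, was the only member not called, with 5.62, 6.34 and 5.70 against 5.28, 5.71 and 5.97, which overlap (difference 0.24, 95% interval -0.24 to 0.72). The mean of all 22 genes was 9.15 to 9.33 on the activated B arrays and 5.52, 5.61 and 5.87 on resting T replicates 4, 5 and 6. In resting T, 14 of the 22 had a mean above background.

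**Figure D2:**
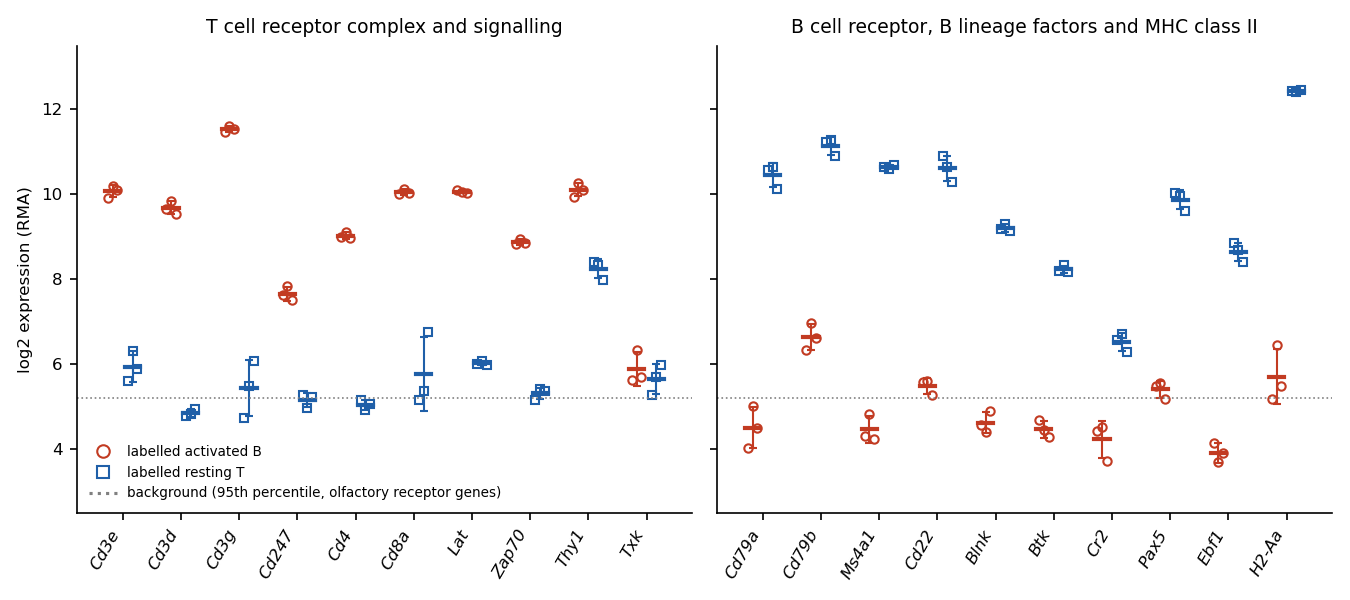
Log2 expression of T cell receptor genes (left) and of B cell receptor genes, B lineage factors and H2-Aa (right) on each array labelled activated B (circles) and resting T (squares), with the mean and SD of each group and the background level as a dotted line. The groups do not overlap for any gene shown except Txk.

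The B cell receptor genes ran the other way. All 20 measured genes of this list were lower in activated B, against 9.93% of all genes, and the median difference was -2.59. Cd79a, which carries the signal of membrane immunoglobulin, was at 4.50 ± 0.49 (SD, n = 3, highest in replicate 2) in activated B and at 10.58, 10.64 and 10.13 in resting T, a difference of -5.94 (SE 0.24, adjusted p = 8.06e-12). None of the activated B arrays was above background. Its partner Cd79b was at 6.34, 6.97 and 6.60 against 11.23, 11.28 and 10.89 (difference -4.50, adjusted p = 7.05e-10), so that it stayed above background on every activated B array. Ms4a1, which encodes CD20, had a difference of -6.18 and the inhibitory receptor gene Cd22 one of -5.12.

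The signalling proteins behind the receptor followed the same direction. The adaptor gene Blnk was at 4.62 ± 0.25 (SD, n = 3) against 9.20 ± 0.09 and the kinase gene Btk at 4.47 ± 0.20 against 8.23 ± 0.09. The members with the least difference were Dapp1, an adaptor of phosphoinositide signalling, at -0.52 (SE 0.13, adjusted p = 0.00797), and the tetraspanins Cd81 at -1.03 and Cd37 at -1.28. Cd81 and Cd37 were above 9 log2 on all 6 arrays. Cr2, the complement receptor of mature B cells, was at 6.57, 6.71 and 6.27 in resting T, only moderately above background, and at 4.43, 4.52 and 3.72 in activated B. On the arrays labelled activated T its mean was 12.06 log2. The mean of the 20 genes was 5.72 to 5.92 on the activated B arrays and 8.61 to 8.88 on the resting T arrays.

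The transcription factors that establish and hold each lineage divided in the same manner. Of 13 measured T lineage factors, 10 were higher in activated B, against 13% of all genes, and 0 lower, with a median difference of 0.95. Gata3, which directs the T helper 2 programme and T cell development, was at 10.30, 10.26 and 10.40 against 4.74, 5.14 and 5.56, a difference of 5.17 (SE 0.15, adjusted p = 5.03e-13). No resting T array was within 4 log2 units of an activated B array. Tbx21, the T helper 1 factor T-bet, was at 8.44 ± 0.27 (SD, n = 3) against 6.15 ± 0.60, and Bcl11b, a commitment factor of T cells, at 8.19 ± 0.14 against 5.78 ± 0.19. Lef1 was above background in both groups, at 9.50 ± 0.09 against 8.52 ± 0.05 (difference 0.98, adjusted p = 0.00019). Foxp3, the factor of regulatory T cells, was not called, with 5.88, 6.05 and 5.80 against 5.45, 5.36 and 5.78 (difference 0.37, adjusted p = 0.0519), but was called under 7 alternatives (adjusted p = 0.0118 to 0.0451), among them without resting T replicate 6 (0.0118). Eomes was not called either, nor was Tox, which was called with the 6 arrays alone (adjusted p = 0.0433).

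Of 15 measured B lineage factors, 12 were lower in activated B, against 9.93% of all genes, and 1 was higher, with a median difference of -2.16. Pax5, which maintains B cell identity, was at 5.47, 5.56 and 5.19 against 10.03, 9.97 and 9.61, a difference of -4.46 (SE 0.17, adjusted p = 6.71e-12). Ebf1, which acts with it in early B cells, was at 4.15, 3.69 and 3.90 against 8.84, 8.68 and 8.41, a difference of -4.73 (SE 0.21, adjusted p = 2.51e-11). For both genes the activated B arrays were near or below background. Pou2af1, an immunoglobulin gene coactivator, had a difference of -5.34 and Mef2c, which acts downstream of the B cell receptor, one of -5.86. Ets2 was the member that was higher in activated B, at 6.80 ± 0.08 (SD, n = 3) against 5.89 ± 0.25 (difference 0.90, adjusted p = 1.99e-05). Bach2, which both lymphocyte lineages use to restrain effector differentiation, was at 7.66 ± 0.18 against 8.04 ± 0.16 (difference -0.38, adjusted p = 0.0977), and was called with the 6 arrays alone (adjusted p = 0.0413).

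The genes of MHC class II presentation had the lowest median of the 38 lists described here, -4.31. All 10 measured genes were lower in activated B, against 9.93% of all genes. H2-Aa, the alpha chain of the I-A molecule, was at 5.18, 6.44 and 5.49 against 12.44, 12.41 and 12.46, a difference of -6.73 (SE 0.25, adjusted p = 3.57e-12). The resting T arrays lay within 0.05 log2 of each other, and activated B replicate 2 was the highest of its group. Cd74, the invariant chain, was at 5.90 ± 0.50 (SD, n = 3) against 12.09 ± 0.12. H2-Ob, a chain of the peptide exchange regulator H2-O, was at 5.56, 5.06 and 5.47 against 10.50, 10.30 and 10.08 (difference -4.93, adjusted p = 7.03e-12), and its partner H2-Oa had a smaller difference of -2.47. Ciita, the master regulator of class II promoters, was at 5.21, 5.45 and 4.96 in activated B, around background, and at 9.06, 9.17 and 8.80 in resting T (difference -3.81, SE 0.16, adjusted p = 2.13e-11).

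Class II promoters are known for a shared array of boxes ahead of the start site, of which the X box binds RFX factors and the Y box, an inverted CCAAT, binds NF-Y. The promoters of 4 of these genes are shown because they hold GCAAC, a part of the X box, and TGATTGG, a form of the Y box, in the same order and at nearly the same distance. The sequences are the 150 bases ahead of the RefSeq start on GRCm38.p6, 5′ to 3′ on the strand of the gene, with both motifs in capitals.
H2-Aa, chr17:34287824-34287973, minus strand: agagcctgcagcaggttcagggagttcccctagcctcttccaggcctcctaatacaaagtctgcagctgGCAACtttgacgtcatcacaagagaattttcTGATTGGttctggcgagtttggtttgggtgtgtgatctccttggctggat
H2-Eb1, chr17:34305717-34305866, plus strand: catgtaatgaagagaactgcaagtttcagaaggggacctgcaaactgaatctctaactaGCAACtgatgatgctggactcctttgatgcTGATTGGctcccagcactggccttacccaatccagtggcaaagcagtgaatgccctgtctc
H2-Oa, chr17:34092229-34092378, plus strand: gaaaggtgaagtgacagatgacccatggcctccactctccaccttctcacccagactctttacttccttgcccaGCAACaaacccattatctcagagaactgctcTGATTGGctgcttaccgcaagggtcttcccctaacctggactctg
H2-Ob, chr17:34238755-34238904, plus strand: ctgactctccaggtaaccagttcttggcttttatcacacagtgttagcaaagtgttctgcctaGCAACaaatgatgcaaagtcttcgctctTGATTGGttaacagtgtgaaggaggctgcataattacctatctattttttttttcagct

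The starts of the motifs were 31 bases apart in H2-Aa, 30 in H2-Eb1, 31 in H2-Oa and 28 in H2-Ob. Counted on both strands, TGATTGG was found in 4 of the 7 genes of the list that had an entry among the promoters used here, in 9% of the 27025 genes with an entry and in 7.82% of all 32851 promoters. GCAAC was found in 5 of the 7, in 38.6% of genes and in 35.2% of promoters. Neither was limited to this list. Among the mitotic and replication genes described below, TGATTGG was found in 9 of 22 and 8 of 23, and GCAAC in 10 of 22 and 7 of 23. A match of letters does not show that a factor was bound. The 4 genes had differences of -6.73, -4.82, -2.47 and -4.93 in the order printed, so that genes with the same spacing of 31 bases differed in the size of their change.

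Immunoglobulin and plasma cell genes were mostly lower in activated B. All 4 measured immunoglobulin chain genes of the list fell on that side, against 9.93% of all genes, with a median difference of -3.78. Ighm, the constant region of the mu heavy chain, was at 5.81, 5.37 and 5.51 against 8.78, 9.26 and 8.97 (difference -3.44, SE 0.16, adjusted p = 4.1e-11). Igha, that of the alpha chain, was at 5.80, 5.97 and 6.34 against 10.85, 10.56 and 11.07 (difference -4.79, adjusted p = 1.25e-10). The light chain variable genes Igkv10-96 had a difference of -5.74, but immunoglobulin segments are near-copies of each other and probes may share their transcripts.

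Jchain, which joins IgM and IgA into polymers, was at 4.06, 4.42 and 4.42 in activated B and at 7.44, 8.71 and 9.11 in resting T, a difference of -4.12 (SE 0.30, adjusted p = 1.48e-08). The groups did not overlap, and resting T replicate 4 was more than 1 log2 below the other two. Of 12 measured plasma cell genes, 9 were lower in activated B, against 9.93% of all genes, and 1 was higher. Mzb1, an endoplasmic reticulum cofactor of immunoglobulin assembly, was at 5.82 ± 0.22 (SD, n = 3) against 11.39 ± 0.13, a difference of -5.57. Prdm1, which encodes Blimp-1 and is also expressed in effector T cells, was the higher member, at 7.65, 8.23 and 8.08 against 6.73, 7.26 and 7.01 (difference 0.98, adjusted p = 0.000505). Sdc1, the plasma cell surface marker CD138, was at 5.94 ± 0.03 against 5.98 ± 0.22, and its interval of -0.27 to 0.21 holds a small range around 0. Irf4, used in effector cells of both lineages, was at 9.63 ± 0.22 against 10.10 ± 0.10 (difference -0.47, adjusted p = 0.026), and lost the call without activated B replicate 2 (adjusted p = 0.117), activated B replicate 3 (0.0941), resting T replicate 4 (0.102) or resting T replicate 5 (0.0553).

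Among T cell cytokines, 13 of 22 measured genes were higher in activated B, against 13% of all genes, and 0 lower. The median was 0.67, though 6 of the 22 were at or under background in both groups. The count of higher genes was 9 to 13 under the other settings. Il24, an IL-10 family cytokine, was at 11.05, 10.62 and 10.96 against 3.96, 4.07 and 4.42, a difference of 6.73 (SE 0.13, adjusted p = 3.69e-15). Il10, an anti-inflammatory cytokine, was at 7.98, 8.11 and 8.03 against 3.78, 3.56 and 3.89 (difference 4.30, adjusted p = 1e-13). Il21, which helps B cells, was at 7.29, 7.21 and 7.78 against 3.24, 3.15 and 3.50 (difference 4.13, adjusted p = 6.47e-12). For these cytokines every resting T array was below background.

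The T helper 2 cytokines were also on this side. Il4 was at 7.86 ± 0.15 (SD, n = 3) against 4.93, 5.08 and 4.79 (difference 2.93, adjusted p = 3.6e-11), and Il13 was at 7.83 ± 0.14 (SD, n = 3) against 5.54 ± 0.17. Ifng, the T helper 1 cytokine, was at 5.36, 5.79 and 5.77 against 5.03, 5.60 and 5.74, which overlap (difference 0.19, 95% interval -0.21 to 0.58). Il2, the T cell growth factor, was below background on all 6 arrays, with a highest value of 3.96. Tnf was at 7.16 ± 0.37 against 7.09 ± 0.07, and the interval of its difference was -0.22 to 0.37. The chemokine gene Ccl3 was higher in activated B by 2.43 (adjusted p = 1.82e-06), with values of 7.76, 8.96 and 8.60 against 5.52, 6.13 and 6.36.

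Of 15 measured genes of cytotoxic granules, 5 were higher in activated B (33.3%, against 13% of all genes) and 10 were not called, with a median of 0.11. Gzmb, the serine protease granzyme B, was at 12.71, 12.74 and 12.76 against 8.50, 9.25 and 10.47, a difference of 3.33 (SE 0.35, adjusted p = 1.19e-06). The activated B arrays were alike, while the resting T arrays spanned almost 2 log2 units, all far above background. Gzma was at 11.28, 11.63 and 11.53 against 8.78, 9.63 and 10.60 (difference 1.81, SE 0.44, adjusted p = 0.00566), and was not called with an intensity trend and robust settings (adjusted p = 0.0665). Nkg7, a granule membrane protein, was at 10.82, 11.17 and 10.95 against 6.67, 7.21 and 7.89 (difference 3.73, adjusted p = 3.27e-08). Gzmc showed no such separation, with 7.52, 7.97 and 7.57 against 6.63, 7.70 and 8.69 (difference 0.01, 95% interval -0.68 to 0.70).

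Prf1, the pore-forming protein perforin, was at 8.04, 8.54 and 8.12 against 6.73, 7.41 and 8.11 (difference 0.82, adjusted p = 0.0366). Its groups overlapped, and the call was lost when any of activated B replicates 2 and 3 and resting T replicates 4 and 5 was left out (adjusted p = 0.0591 to 0.213), and under 4 further settings (0.0528 to 0.148). The count of granule genes called higher was 3 without activated B replicate 2, resting T replicate 4 or resting T replicate 5, 3 with the 6 arrays alone, and 2 with an intensity trend and robust settings, the latter close to the share over all genes. Within the resting T arrays, replicate 6 was the highest for 13 of the 15 granule genes. The mean of the list was 6.35, 6.77 and 7.40 on replicates 4, 5 and 6. T cell receptor genes moved the same way to a lesser extent (5.52, 5.61 and 5.87), as did natural killer cell markers (4.00, 4.39 and 4.67) and interferon-stimulated genes (6.49, 6.90 and 7.19). Their part in the granule result was not tested.

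**Figure D3:**
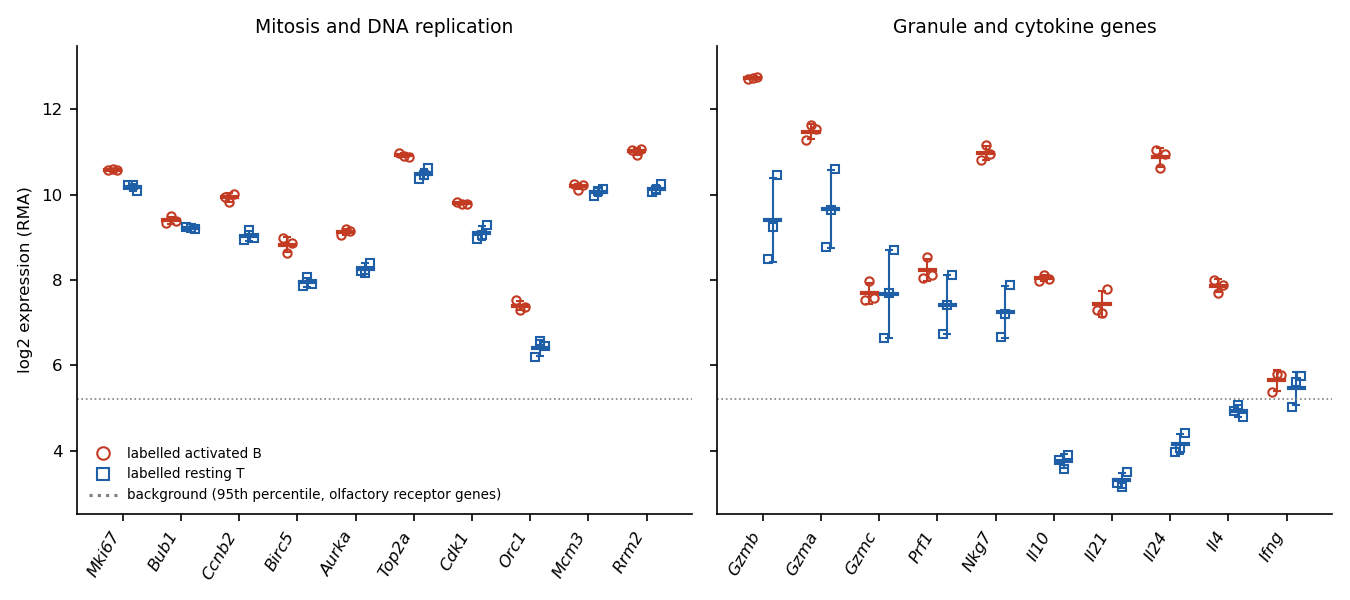
Log2 expression of mitosis and replication genes (left) and of granule and cytokine genes (right) on each array labelled activated B (circles) and resting T (squares), with the mean and SD of each group and the background level as a dotted line. The cycle genes are high in both groups with small differences, the resting T arrays spread widely for the granzymes, and Il10, Il21, Il24 and Il4 are below background in resting T.

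Receptors for costimulation and checkpoint control on T cells were higher in activated B for 13 of 15 measured genes, against 13% of all genes. Their median difference was 3.35. Icos was at 10.30, 10.16 and 9.99 against 4.40, 5.04 and 4.99, a difference of 5.34 (SE 0.18, adjusted p = 1.45e-12). Ctla4, the inhibitory counterpart of Cd28, was at 10.30, 10.62 and 10.52 against 6.23, 6.61 and 6.998 (difference 3.87, adjusted p = 1.38e-10). Tnfrsf4, which encodes OX40, was at 10.59 ± 0.05 (SD, n = 3) against 6.37 ± 0.07. The checkpoint receptor genes Lag3 and Pdcd1 had differences of 3.09 and 2.31. Tnfrsf8, which encodes CD30 and is carried by stimulated cells of both lineages, was above 8 log2 in resting T too, with 10.54, 10.37 and 10.72 against 8.17, 8.51 and 8.42. Btla, an inhibitory receptor shared by B and T cells, was the member that was lower, at 7.44 ± 0.11 against 9.61 ± 0.12. Slamf1 was not called, with an interval of -0.50 to 0.04.

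The list of costimulatory ligands and CD40 lay mostly on the other side. There 8 of 12 measured genes were lower in activated B, against 9.93% of all genes. Cd83, a marker of stimulated antigen-presenting cells, was at 5.56, 6.30 and 6.06 against 11.58, 11.45 and 11.29, a difference of -5.46 (SE 0.17, adjusted p = 7.08e-13). Cd86, a ligand of CD28, was at 4.37, 4.95 and 4.79 against 7.93, 7.90 and 7.997 (difference -3.24, adjusted p = 1.83e-11), and Cd40 was at 5.61 ± 0.22 (SD, n = 3) against 8.84 ± 0.08. Activated B arrays thus held Cd86 below background and Cd40 close to it. Cd80, the other CD28 ligand, was at 6.998, 6.87 and 6.79 against 7.15, 8.04 and 8.16 (difference -0.90, adjusted p = 0.00835), and lost the call without resting T replicate 6 (adjusted p = 0.0514). Tnfsf8, the ligand of CD30, was the member that was higher, by 3.85.

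Cytokine receptors divided by chain. Of 23 measured genes, 12 were higher in activated B and 5 lower, against 13% and 9.93% of all genes, and 6 were not called. The count of higher genes was 8 without activated B replicate 2 and 9 to 13 without another array. Il2ra, the alpha chain of the IL-2 receptor, was at 12.06, 11.96 and 11.89 against 8.17, 8.55 and 8.57, a difference of 3.54 (SE 0.13, adjusted p = 5.31e-12). It was above background in both groups, unlike in the arrays labelled activated T, whose mean was 4.84. Il2rb, the shared beta chain of the IL-2 and IL-15 receptors, was at 10.84, 11.07 and 10.97 against 6.55, 7.46 and 8.20 (difference 3.55, adjusted p = 1.1e-07). Il7r was at 10.02 ± 0.09 (SD, n = 3) against 4.72 ± 0.19, and Il12rb2, the signalling chain of the IL-12 receptor, at 10.46 ± 0.05 against 5.42 ± 0.40.

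The lower genes were led by the IL-5 receptor. Il5ra was at 4.03, 4.16 and 4.17 against 10.85, 10.74 and 10.77, a difference of -6.66 (SE 0.13, adjusted p = 3.69e-15). The spread within each group was under 0.15 log2, and activated B lay below background. Il9r was at 5.34, 5.43 and 5.44 against 9.01, 9.29 and 8.61 (difference -3.57, adjusted p = 6.4e-12). Il4ra, through which IL-4 and IL-13 act, was alike in both groups, at 11.61 ± 0.11 (SD, n = 3) against 11.79 ± 0.07, with an interval of -0.38 to 0.01. The IL-21 receptor gene Il21r was above 9 log2 in both groups, with a difference of -0.70.

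Behind these receptors stand the JAK kinases and STAT factors. Of 9 measured JAK and STAT genes, 2 were higher and 1 was lower (3 after quantile normalization), against 13% and 9.93% of all genes, and 6 were not called. An interval within 0.5 log2 of 0 was found for 4, against 61.9% of the genes that were above background in both groups. Jak1, at 10.27 ± 0.10 (SD, n = 3) against 10.16 ± 0.23, had an interval of -0.11 to 0.34, and Stat3 one of -0.11 to 0.27. Jak2 was at 9.85, 10.04 and 10.15 against 8.58, 8.42 and 8.53 (difference 1.50, adjusted p = 4.76e-09). Stat2, which acts in type I interferon signalling, was lower by 1.40 log2 in activated B, with 7.96, 8.26 and 8.29 against 9.42, 9.67 and 9.63 (adjusted p = 2.74e-08). Of 8 SOCS genes, feedback inhibitors of this pathway, 2 were higher and 1 lower (37.5% called, against 23% of all genes). Socs2 was the lower one, at 9.73, 9.34 and 9.44 against 11.43, 11.42 and 11.10 (difference -1.81, adjusted p = 8.9e-09), while Cish was higher by 0.63. Both were high in each group, against means of 4.85 to 6.49 on the resting B and activated T arrays. Socs3 was called higher by 0.54 (adjusted p = 0.0197), and lost the call without activated B replicate 2 (0.082), activated B replicate 3 (0.0715) or resting T replicate 6 (0.103), and with the 6 arrays alone (0.0536).

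Targets of IL-4 and STAT6 did not move together. Of 13 measured genes, 3 were higher in activated B and 6 lower, against 13% and 9.93% of all genes. The other 4 were not called, and the median was -0.18. Fcer2a, the IgE receptor CD23 that IL-4 induces in B cells, was at 4.40, 4.23 and 4.08 against 11.09, 11.17 and 11.22, a difference of -6.92 (SE 0.35, adjusted p = 1.59e-10). It was also high in the arrays labelled activated T, with a mean of 10.71. Ccl22, a chemokine of stimulated B cells and dendritic cells, was at 4.50, 4.94 and 4.71 against 9.31, 9.70 and 10.13 (difference -5.00, adjusted p = 5.92e-12). Gfi1, a repressor used in T helper 2 expansion, was higher by 1.15. Nfil3 was high in both groups, at 10.28 ± 0.11 (SD, n = 3) against 10.36 ± 0.23, with an interval of -0.39 to 0.23, and its mean was 5.72 or less on the other 6 arrays.

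Targets of CD40 and NF-kB were lower in activated B for 15 of 19 measured genes, against 9.93% of all genes, with a median of -1.19. Nfkb2, a precursor and subunit of the noncanonical pathway, was at 7.86, 8.09 and 8.17 against 9.40, 9.68 and 9.50 (difference -1.49, adjusted p = 4.87e-09). Nfkbie, an inhibitor that NF-kB itself induces, was at 6.55, 6.66 and 6.55 against 8.36, 8.47 and 8.30 (difference -1.79, adjusted p = 4.16e-10). The groups were tight and apart for both. Fas, the death receptor, was at 6.75, 6.63 and 6.65 against 8.07, 8.57 and 8.53 (difference -1.72, adjusted p = 6.26e-09). Tnip1 was the member that was higher, by 0.57. Several members of this list, such as Cd83, Cd86 and Ccl22, are the same genes as in the lists above.

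Innate sensors and interferon targets were lower in activated B as well. Of 13 measured Toll-like receptor genes and partners, 9 were lower, against 9.93% of all genes, and 0 higher, with a median of -0.82. Tlr7, the sensor of single-stranded RNA, was at 3.18, 3.47 and 3.78 against 9.28, 9.43 and 9.47, a difference of -5.92 (SE 0.16, adjusted p = 1.72e-13). Ly86 and Cd180, which form the RP105 complex of B cells, had differences of -6.00 and -3.85. Tlr9 was at 5.31 ± 0.31 (SD, n = 3) against 7.62 ± 0.16. Of 18 measured interferon-stimulated genes, 12 were lower, against 9.93% of all genes, and 0 higher, with a median of -0.77. Rtp4 was at 4.64, 4.68 and 4.41 against 6.90, 7.27 and 7.50 (difference -2.64, adjusted p = 9.43e-09), and Usp18, which damps interferon signalling, at 5.46, 5.60 and 5.65 against 7.31, 8.09 and 8.22 (difference -2.31, adjusted p = 4.97e-08). Resting T replicate 4 was the lowest of its group for 17 of the 18 genes and replicate 6 the highest for 14.

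Homing receptors and integrins were higher in activated B for 18 of 28 measured genes and lower for 5, against 13% and 9.93% of all genes. Their median was 0.93. Ccr8, a chemokine receptor of T helper 2 and regulatory T cells, was at 7.78, 7.84 and 7.78 against 3.55, 3.39 and 3.80, a difference of 4.22 (SE 0.12, adjusted p = 4.5e-13). Cxcr3, a receptor of T helper 1 and CD8 effector cells, was at 9.12, 9.26 and 9.37 against 5.79, 6.26 and 5.79 (difference 3.30, adjusted p = 4.98e-10). Itgb7, a chain of gut-homing integrins, was at 9.23 ± 0.14 (SD, n = 3) against 5.93 ± 0.46, and Itgal and Itgb2, the chains of LFA-1, had differences of 1.76 and 1.39. Ccr7, the receptor for entry into lymph nodes, was above 8 log2 on all 6 arrays and higher in activated B by 1.50.

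On the other side stood Cxcr5, a receptor that places B cells in follicles. It was at 3.96, 4.23 and 4.03 against 8.49, 8.26 and 8.06, a difference of -4.20 (SE 0.24, adjusted p = 5.14e-10). S1pr3 and Gpr183, which position B cells in the spleen, had differences of -3.60 and -3.05. Cd44, a hyaluronan receptor raised on stimulated lymphocytes, was at 7.39, 7.34 and 7.25 against 9.82, 9.92 and 9.83 (difference -2.53, adjusted p = 2.68e-12). Its level on the activated B arrays was no higher than on the other 6 arrays, whose group means were 7.72 and 7.51. Cxcr4 had an interval of -0.30 to 0.27.

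Cell cycle genes were high in both groups, and mostly a little higher in activated B. Of 25 measured genes of the mitotic spindle and kinetochore, 19 were called higher and 0 lower, against 13% of all genes higher, with a median difference of 0.54. All 25 were above background in both groups and none overlapped between them, against 35.2% of all genes, yet the highest difference of the list was 0.90. The count of called genes was 16 to 24 under the other settings, with 24 when the 6 arrays were fitted alone. Ccnb2, the mitotic cyclin B2, was at 9.94, 9.84 and 10.03 against 8.93, 9.17 and 8.99 (difference 0.90, SE 0.14, adjusted p = 0.00011). Aurka, a spindle pole kinase, was at 9.05, 9.19 and 9.14 against 8.21, 8.17 and 8.41 (difference 0.86, adjusted p = 4.29e-05). Cdk1, the kinase of mitotic entry, was at 9.84, 9.79 and 9.79 against 8.97, 9.07 and 9.29 (difference 0.70, adjusted p = 0.00698).

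The proliferation marker Mki67 was at 10.57, 10.59 and 10.57 against 10.24, 10.22 and 10.09 (difference 0.40, 95% interval -0.06 to 0.85, adjusted p = 0.23). Its groups did not overlap, and it was called with the 6 arrays alone (adjusted p = 0.00732), as was the motor gene Kif11 (0.00798). Bub1, a kinase of the spindle checkpoint, was at 9.33, 9.49 and 9.38 against 9.23, 9.22 and 9.20. By comparison, Mki67 had means of 6.56 and 6.31 in resting B and activated T as labelled, and Bub1 of 4.37 and 4.31. The gap between the groups compared here was small beside their distance from the other 6 arrays. Top2a was called higher by 0.44 (adjusted p = 0.0404), and lost the call when any array but resting T replicate 6 was left out (adjusted p = 0.0779 to 0.143), with arrays centred on their 75th percentile (0.0739) and after quantile normalization (0.0757).

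Genes of mitosis are known to share an element read by the DREAM complex, called CHR (TTTGAA), often beside CCAAT boxes. Promoters of 4 members are shown because they hold both, although the differences of these genes ranged from 0.38 to 0.70 and that of Kif11 and Mki67 was not called. The 150 bases ahead of the RefSeq start on GRCm38.p6 are given 5′ to 3′ on the strand of the gene, with TTTGAA and CCAAT, or their reverse complements, in capitals.
Mki67, chr7:135716380-135716529, minus strand: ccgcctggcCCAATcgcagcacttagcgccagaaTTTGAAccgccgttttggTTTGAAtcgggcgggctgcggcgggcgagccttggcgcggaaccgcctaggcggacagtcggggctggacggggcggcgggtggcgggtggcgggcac
Cdk1, chr10:69352913-69353062, minus strand: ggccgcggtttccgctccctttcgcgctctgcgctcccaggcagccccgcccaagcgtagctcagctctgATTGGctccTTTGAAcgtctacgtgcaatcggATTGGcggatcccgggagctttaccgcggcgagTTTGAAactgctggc
Cdc20, chr4:118437344-118437493, minus strand: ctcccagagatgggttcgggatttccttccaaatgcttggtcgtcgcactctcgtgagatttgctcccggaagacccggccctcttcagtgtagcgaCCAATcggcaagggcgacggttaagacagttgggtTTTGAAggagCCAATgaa
Kif11, chr19:37376232-37376381, plus strand: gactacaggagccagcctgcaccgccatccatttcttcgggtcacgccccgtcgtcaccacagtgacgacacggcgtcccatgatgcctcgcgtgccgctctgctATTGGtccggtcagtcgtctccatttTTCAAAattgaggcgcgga

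TTTGAA was found on either strand in 16 of the 22 mitotic genes with an entry, in 3 of 23 replication genes, in 20.2% of genes and in 17.9% of promoters. CCAAT was found in 16 of the 22 mitotic genes, in 15 of 23 replication genes, in 41.1% of genes and in 37.4% of promoters. TGATTGG, the Y box form searched above, contains the reverse complement of CCAAT. No match says only that these letters are not in the 300 bases searched around a start.

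Genes of DNA replication were called higher for 19 of 28 and lower for 0, against 13% of all genes higher, with a median of 0.45. All 28 were above background in both groups. Orc1, a subunit of the origin recognition complex, was at 7.52, 7.30 and 7.37 against 6.20, 6.57 and 6.46 (difference 0.99, SE 0.13, adjusted p = 2.68e-05). Rrm2, the regulated subunit of ribonucleotide reductase, was at 11.05, 10.93 and 11.07 against 10.06, 10.10 and 10.24 (difference 0.88, adjusted p = 0.00274). The helicase subunit gene Mcm3 was alike, at 10.19 ± 0.06 (SD, n = 3) against 10.06 ± 0.08, with an interval of -0.13 to 0.39. Fen1, the flap endonuclease, had an interval of -0.29 to 0.13. In all 7 genes of the list (25%) had an interval within 0.5 log2 of 0, against 61.9% of genes above background in both groups. Pcna was called higher by 0.42 (adjusted p = 0.00198), but not when its probe sets were averaged (difference 0.30, adjusted p = 0.316).

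Of 21 measured G1 regulators, 10 were higher, against 13% of all genes, and 0 lower. An interval within 0.5 log2 of 0 was found for 11 (52.4%, against 61.9% of genes above background in both groups). Cdk6, a kinase that D-type cyclins switch on, was at 10.92, 10.66 and 10.70 against 8.82, 9.05 and 9.11 (difference 1.76, SE 0.11, adjusted p = 1.99e-09). Ccnd3 was at 8.95, 8.88 and 8.95 against 7.42, 7.64 and 7.39 (difference 1.44, adjusted p = 1.06e-08), and the inhibitor gene Cdkn2d was higher by 1.38. Thus a cyclin, a kinase and an inhibitor of the same step stood higher together. Cdk4 had a difference of 0.21 with an interval of 0.01 to 0.42 and was not called, and E2f1 one of -0.20 to 0.39. Ccnd2 was at 11.47 ± 0.04 (SD, n = 3) against 11.74 ± 0.06 and was not called. Myc was called higher by 0.29 (adjusted p = 0.0386), with an interval of 0.08 to 0.49. That call was lost without activated B replicate 1 (adjusted p = 0.145), activated B replicate 3 (0.132), resting T replicate 4 (0.16) or resting T replicate 6 (0.0634), and with the arrays centred on their median (0.0594) or 75th percentile (0.106), after quantile normalization (0.145) and with the 6 arrays alone (0.071).

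Lists of metabolism and repair varied in how many members were called. Of 18 measured genes of cholesterol synthesis, 16 were not called, 2 were lower (11.1% called, against 23% of all genes) and 12 had an interval within 0.5 log2 of 0, against 61.9% of genes above background in both groups. The 2 lower ones, Idi1 (difference -0.51) and Msmo1 (-0.39), were both lost as calls without activated B replicate 2, activated B replicate 3 or resting T replicate 6. Msmo1 was also lost without resting T replicate 5 (adjusted p = 0.0718) and Idi1 when probe sets were averaged (0.295), and 6 genes of the list were called lower after quantile normalization. Of 19 measured genes of glycolysis and lactate export, 4 were higher, 5 lower and 10 not called (47.4% called, against 23% of all genes). The count of lower genes was 3 without activated B replicate 1. It was 2 without activated B replicate 2 or resting T replicate 4, near the 9.93% of all genes called lower. Slc2a3, a high-affinity glucose transporter, was at 10.46, 10.55 and 10.46 against 8.90, 8.73 and 8.65 (difference 1.72, SE 0.10, adjusted p = 5.24e-10). Its relative Slc2a1 was at 10.10 ± 0.08 (SD, n = 3) against 10.20 ± 0.06, with an interval of -0.35 to 0.15. Aldoc, an aldolase isoform, was lower in activated B by 1.34 log2, at 8.65, 8.81 and 8.48 against 10.29, 9.97 and 9.71 (adjusted p = 1.42e-06).

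Of 17 measured genes of class switch recombination and mismatch repair, 14 were not called and 3 were lower (17.6% called, against 23% of all genes). An interval within 0.5 log2 of 0 was found for 12 (70.6%, against 61.9% of genes above background in both groups). Under the other settings the count of lower genes was 2 to 5 and that of higher genes 0 to 4, with 4 under array weights. Parp1, a sensor of DNA breaks, was at 9.28, 9.27 and 9.33 against 9.88, 9.97 and 9.86 (difference -0.61, adjusted p = 0.000204), and the abasic endonuclease gene Apex1 had a difference of -0.41. Of 12 amino acid transporter genes, 4 were higher and 2 lower (50% called, against 23% of all genes). The count of higher genes was 1 without activated B replicate 1, activated B replicate 2 or resting T replicate 4. It was 2 without resting T replicate 6, with any of the 3 other scalings or with the 6 arrays alone. Counts of 1 and 2 lie near the 13% of all genes called higher. Slc43a1 had the largest difference of the transporter genes, -1.06. Of 20 genes of the unfolded protein response and secretion, 11 were lower and 1 higher (60% called, against 23% of all genes), with a median of -0.44. Hspa5, the chaperone BiP, was at 11.06, 10.99 and 11.06 against 11.56, 11.73 and 11.72 (difference -0.63, adjusted p = 0.000125). Dnajb9, a cochaperone of BiP, and the sensor gene Atf6 had differences of -1.24 and -1.12, whereas the oxidoreductase gene Ero1a was higher by 0.49.

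Of 9 measured genes of steroid metabolism, 2 were called (22.2%, near the 23% of all genes), and 5 were at or under background in both groups. The 2 called genes were far higher in activated B, and since resting T lay below background their differences understate the ratios. Akr1c18, a 20-alpha-hydroxysteroid dehydrogenase that inactivates progesterone, was at 11.45, 10.86 and 10.52 against 3.46, 3.39 and 3.59, a difference of 7.46 (SE 0.17, adjusted p = 2.26e-14). Cyp11a1, which cleaves the side chain of cholesterol to form pregnenolone, was at 10.82, 10.84 and 10.98 against 4.56, 4.82 and 4.44, a difference of 6.28 (SE 0.15, adjusted p = 2.26e-14). No resting T array was above background for either gene, and on the other 6 arrays both genes were below it as well, except Cyp11a1 on resting B replicate 1 (5.33). The other 7 measured genes of the list, the cholesterol importer Star and the hydroxysteroid dehydrogenases among them, were not called.

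Survival and early response genes were divided. Of 13 BCL2 family genes, 2 were higher and 4 lower, against 13% and 9.93% of all genes. Bcl2 itself was at 10.23, 10.18 and 10.10 against 8.32, 8.44 and 8.64 (difference 1.70, SE 0.10, adjusted p = 1.54e-09), and the pro-death gene Bid was at 6.92 ± 0.03 (SD, n = 3) against 7.78 ± 0.07. The count of lower genes was 2 without activated B replicate 1 or resting T replicate 6, and that of higher genes was 1 without activated B replicate 1, activated B replicate 2 or resting T replicate 5, with any of the 3 other scalings, with the 6 arrays alone and with a term for high Xist. Of 8 GIMAP genes, small GTPases of lymphocytes, 5 were higher, against 13% of all genes, and 0 lower. Gimap7 led them at 9.86 ± 0.14 against 8.54 ± 0.07, and 3 GIMAP genes were called higher without activated B replicate 2. Of 17 AP-1 and EGR factors, 6 were higher and 2 lower, against 13% and 9.93% of all genes. Maf, which drives Il4 and Il10 in T cells, was at 8.59, 8.61 and 9.004 against 5.93, 5.68 and 6.02 (difference 2.86, adjusted p = 1.3e-10). Egr2 and Jun were the lower members, with differences of -2.43 and -1.57.

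**Figure D4:**
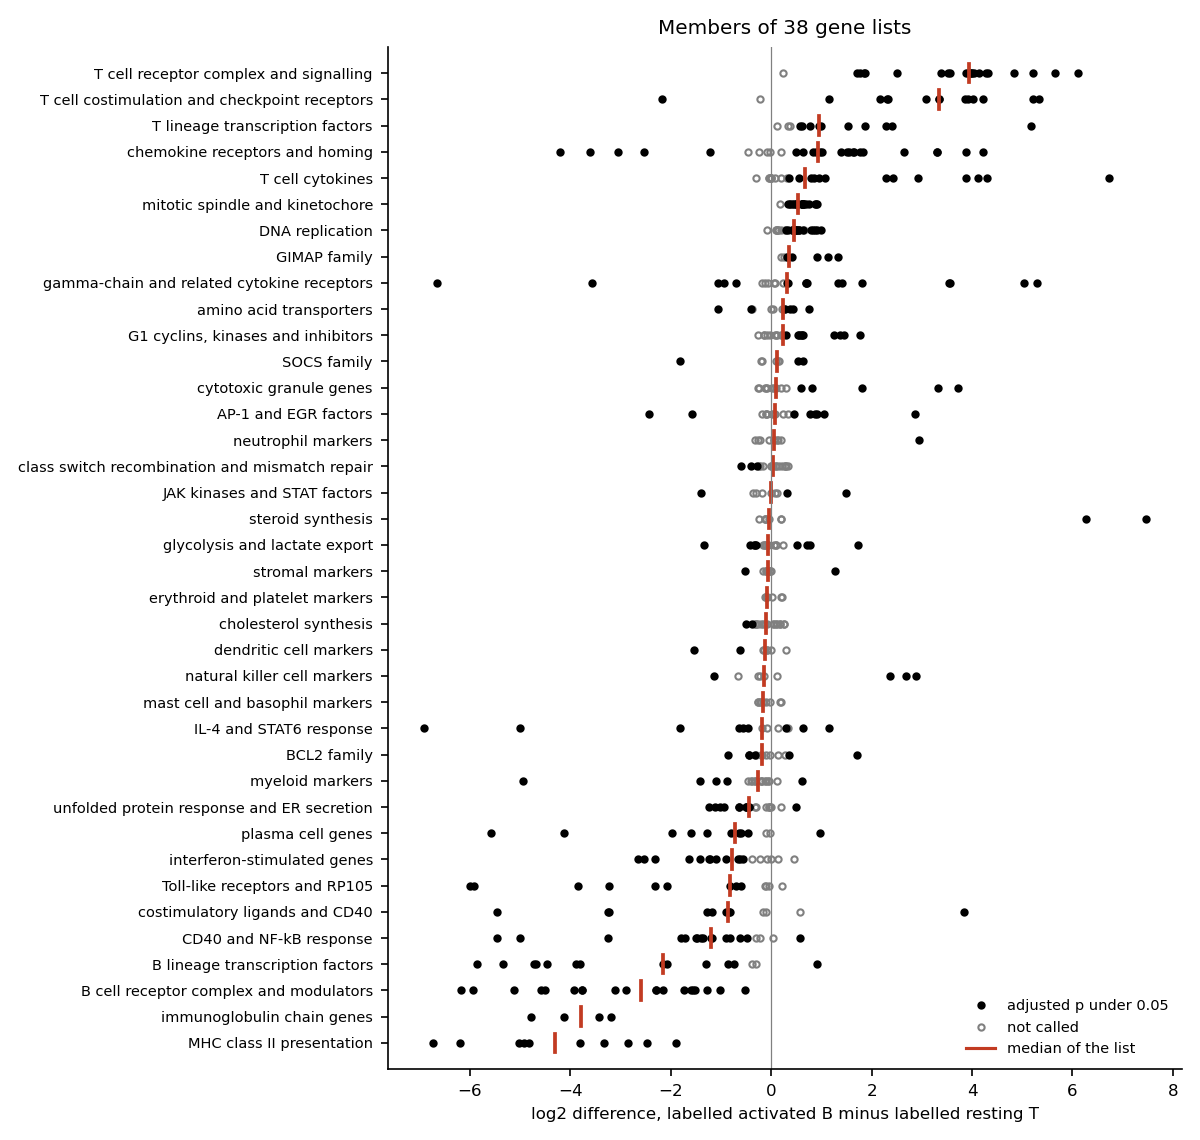
Log2 difference (activated B minus resting T, as labelled) of every measured member of 38 gene lists, with called genes filled and the median of each list as a bar, ordered by the median. T cell receptor genes have the highest median (3.94) and MHC class II genes the lowest (-4.31), and most lists of metabolism and of other cell types have medians near 0.

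Markers of other cell types were largely near background. None of 9 mast cell and basophil and none of 8 erythroid and platelet genes was called, and of 10 neutrophil genes the only call was Ly6g, at 7.12, 7.22 and 7.01 against 4.04, 4.30 and 4.18. The other granulocyte genes, S100a8 and S100a9 among them, were not called, and 8 of the 10 were at or under background in both groups. Of 18 myeloid genes, 4 were lower and 1 higher (27.8% called, near the 23% of all genes), and 10 were at or under background in both. Their mean was 4.80 to 4.92 in activated B and 5.39 to 5.46 in resting T. Mpeg1, a pore-forming protein of macrophages that B cells also express, was at 3.48, 3.37 and 3.43 against 7.99, 8.40 and 8.72 (difference -4.95, adjusted p = 1.31e-12), while Lyz2 was at 5.45, 5.57 and 6.34 in resting T, close to background. Of 8 dendritic cell genes, 2 were lower (25% called, near the 23% of all genes), with Flt3 at 5.04 ± 0.28 (SD, n = 3) against 6.59 ± 0.16. Of 10 stromal genes, 1 was higher and 1 lower (20% called, near the 23% of all genes).

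Of 9 natural killer cell genes, 3 were higher and 1 lower, against 13% and 9.93% of all genes. The higher ones were the lectin receptors Klrd1, Klrc1 and Klrk1, which CD8 T cells also carry, with differences of 2.89, 2.69 and 2.36. Ncr1, which is more specific to natural killer cells, was below background in activated B and at 4.94, 5.12 and 5.30 in resting T (difference -1.15, adjusted p = 0.0326), and that call was lost when any array was left out (adjusted p = 0.0538 to 0.0997). Some of the greatest differences lay outside the lists. Ecm1, an extracellular matrix protein of T helper 2 cells, was at 11.45, 11.86 and 11.88 against 6.03, 5.92 and 5.99 (difference 5.75, adjusted p = 3.69e-15). S100a6 was higher by 5.02 and Ctla2a, a cysteine protease inhibitor, by 5.68. Kynu and Kmo, enzymes of tryptophan breakdown through kynurenine, were lower by 6.13 and 5.79 log2, with Kynu at 3.82, 4.39 and 3.88 against 10.20, 10.23 and 10.04. Rasgrp3, a Ras activator of B cells, had a difference of -6.14, and Cybb, a subunit of the phagocyte oxidase, one of -5.71.

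For a comparison with arrays low in mitosis genes, the difference between activated B and resting T was set against that between resting B and activated T as labelled. The 2 differences share no array. Across 19937 genes they correlated at r = 0.58 (Spearman 0.34), as a description, since genes are not independent replicates. The difference of the differences was called for 2924 genes (14.7%), 1598 with a positive value (8.02%) and 1326 with a negative one (6.65%). Between resting B and activated T, 3687 genes were called (18.5%). Genes called in both with the same sign numbered 1858 (9.32%), and with opposite signs 273 (1.37%).

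For T cell receptor genes, the difference of the differences was called for 5 of 22, against 14.7% of all genes, 1 positive and 4 negative, with a median of -0.02 over the list. Intervals were wide for some of the 17 others, such as -0.36 to 1.84 for Cd3g and -0.69 to 1.12 for Cd8a. Cd3e had a value of -0.04 (95% interval -0.56 to 0.48) and Cd4 one of 0.04. Txk and Thy1 stood apart, at -3.58 (adjusted p = 5.46e-07) and -2.12 (adjusted p = 9.13e-06). Txk was at a mean of 10.31 on the arrays labelled resting B, against 5.89 in activated B. For MHC class II genes, the difference of the differences was called negative for 8 of 10, against 6.65% of all genes. These 8 differed more between activated B and resting T than in the other pair. H2-Aa had a value of -4.97 (adjusted p = 4.22e-08), since its mean was 10.96 on the arrays labelled resting B and 5.70 in activated B. For H2-Oa the value was 0.02.

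The positive values were greatest for genes that stood far higher in activated B than in the other 3 groups. Akr1c18 had a value of 7.41, Il24 of 7.002, Cyp11a1 of 5.82 and Ecm1 of 4.82, and for the first 2 all of the other 9 arrays were below background. Il10 and Il21 followed with 4.29 and 4.25. In the negative direction, Il5ra had a value of -4.99 and Ccl22 of -4.82, with means of 10.78 and 9.71 in resting T and of 6.84 and 4.97 in the arrays labelled activated T. Jchain had the lowest value, -9.51 (adjusted p = 2.74e-10), and its 2 differences had opposite signs, -4.12 between activated B and resting T and 5.39 between resting B and activated T. Its mean on the arrays labelled resting B was 10.97. Mitotic genes were called positive for 9 of 25 and negative for 0, with a median of 0.39, and replication genes for 8 and 2 of 28. Over all genes the shares were 8.02% positive and 6.65% negative.

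**Figure D5:**
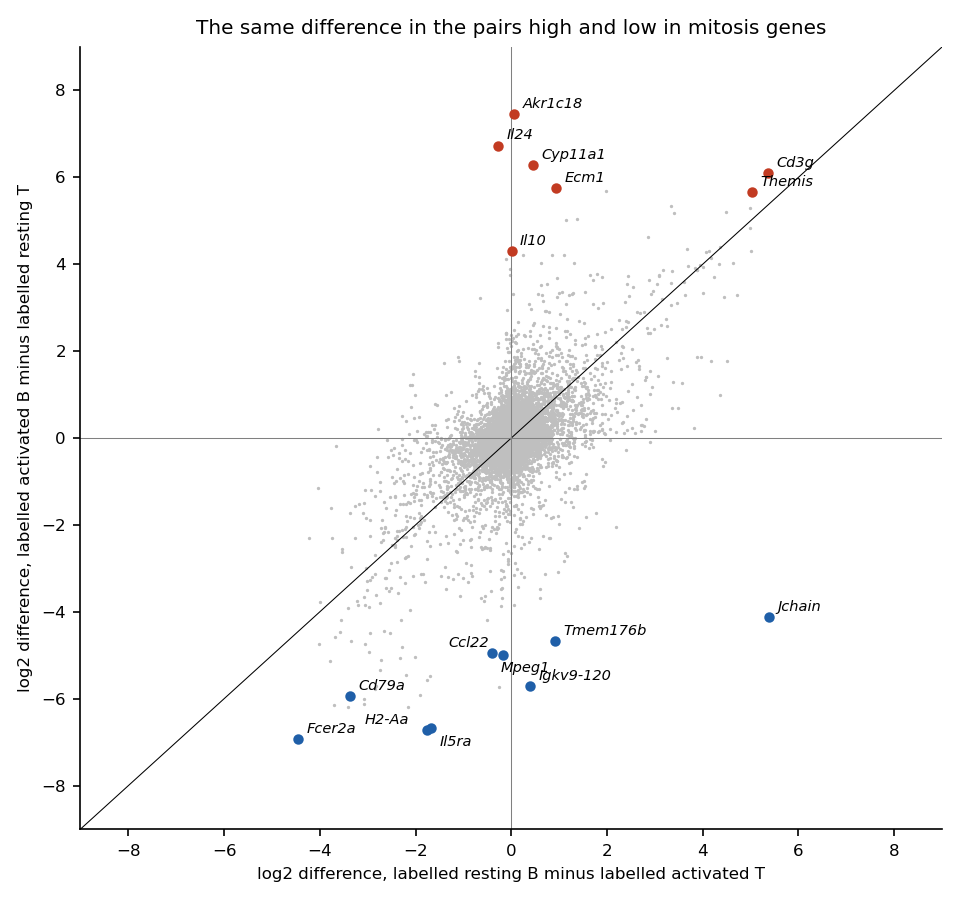
Log2 difference between activated B and resting T (vertical) against that between resting B and activated T (horizontal), as labelled, for every gene, with the line of equal differences and 16 genes named. Cd3g and Themis lie near the line, Akr1c18, Il24, Cyp11a1 and Il10 lie high at almost no difference on the horizontal axis, and Jchain has differences of opposite sign.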

How the data were processed

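Total RNA of splenic lymphocytes was hybridised to 12 Affymetrix arrays, 3 for each of 4 labelled groups. The deposited values are log2 probe set levels from RMA, according to the submitters' processing notes. The RMA version is not given in the sources used here. RMA brings all arrays to 1 distribution, so a shift of most genes cannot be seen, and low values are compressed. The number of arrays limits the precision. Of 34760 probe sets, 21640 had 1 gene symbol, 1321 several and 11799 none named here. For 954 genes the probe set with the highest mean was taken, which gave 19937 genes.

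Deposited log2 values entered limma 3.58.1 (R 4.3.3) with a mean for each labelled group over all 12 arrays (8 residual degrees of freedom), two-sided, with p-values adjusted by Benjamini-Hochberg across every gene tested and a threshold of 0.05. Intervals are 95% intervals of the same fit. An interval within 0.5 log2 of 0 was counted only for genes above background in both groups. Tested on simulated data for this comparison over 19937 genes, the fit called 46% of 50 genes changed by 0.5 log2. It called 97% of 100 changed by 1 and 100% of 50 changed by 2, with 5 of 175 calls false. Far fewer genes were changed there than were called on the real arrays, and the spread was drawn separately for each gene. These shares therefore need not hold for the real comparison.

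The comparison, the 38 gene lists (548 of 595 genes measured) and the genes named were chosen with earlier results of these data known. Genes named were drawn, not all of them printed, from the 15 genes with the largest difference in each direction, the first 6 and the 3 most extreme members in each direction of a list, any member of the receptor, factor and cycle lists, and the 8 largest differences of the differences in each direction. Ccl3, Cd44, Cdk4, E2f1, Fas, H2-Ob, Itgal, Itgb2, Itgb7, Myc, Tlr9, Tnfrsf8 and the sex-linked genes were named outside that rule after their values were seen.

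No array was a copy of another (at most 0.08% of values identical). Promoters were taken from RefSeq (GRCm38.p6), from 250 bases before to 50 after a start. Alternatives were scaling, filters, probe sets, arrays fitted, variance model, replicate number, leaving out each array, and, added after seeing the data, a term for arrays with high Xist. Figures used Python 3.11.15 and matplotlib 3.10.9.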

Additional observations from a re-analysis of the deposited data

Results flagged for a closer look

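The difference between activated B and resting T differed from that between resting B and activated T, as labelled, by the limma test of the difference of the differences, for 2924 genes. The largest positive values among the genes named were 7.41 for Akr1c18, 7.002 for Il24, 5.82 for Cyp11a1, 4.82 for Ecm1, 4.29 for Il10, 4.25 for Il21, 3.97 for Cysltr1, a leukotriene receptor, and 3.92 for Lif. The largest negative ones were -9.51 for Jchain, -6.11 for a kappa variable gene of the light chain, -5.58 for Tmem176b, -5.49 for Igkv10-96, -4.99 for Il5ra, -4.97 for H2-Aa, -4.82 for Ccl22 and -4.54 for Mpeg1. Groups of 3 arrays were too small for a test of single outlying arrays.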

How the results depend on the processing

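The count of genes called was 4579, between 4359 and 5024 under the other settings and between 3876 and 4384 when an array was left out. For a difference of at least 2-fold the count was 1112 (1029 to 1209, and 1111 to 1135), for the difference of the differences 2924 (2780 to 3197, and 2488 to 2808), for members of the lists 323 (318 to 338, and 296 to 311) and for intervals within 0.5 log2 of 0 it was 7086 (6873 to 7618, and 6408 to 6611). Activated B and resting T share no replicate number, so a fixed replicate block could not be fitted for their difference. With the number as a random replicate block, 4577 genes were called and 2936 for the difference of the differences. That one can take a fixed replicate block (added after seeing the data), with 2796 genes called. Same-numbered arrays deviated together at a correlation above 0.1 in 3 of 6 pairs (-0.05 to 0.187). For replicates 3, 4, 5 and 6 this was above the best correlation with another number (0.135, 0.138, 0.091 and 0.187 against -0.025, -0.073, 0.051 and -0.019). For replicates 1 and 2 it was below (-0.05 and 0.034 against 0.075 and 0.087). These values do not decide whether the numbers mark pairs, and the main fit did not use them as pairs. Of 217 genes examined one by one, 178 were called, 0 changed direction, 12 called genes lost the call in some setting and 12 others gained it. The share of calls that were higher was 56.8%, and 49.5% with arrays centred on their 75th percentile. A term for arrays with high Xist was added after seeing the data. Small counts within lists moved most. Levels near background set the limit for the lower group of many large differences.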
